A study of Ophthalmotilapia nasuta and Ophthalmotilapia ventralis with 60 samples.

Results

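The cytosolic ribosomal protein genes were followed over 6 brain parts of females of the Lake Tanganyika cichlids Ophthalmotilapia nasuta and O. ventralis. The genes were found by name: rpl or rps with a number (and any letter after it), rplp0 to rplp2, and rpsa, without the kinases whose names start with rps6k. This gave 68 of the 36499 genes in the count files, 40 of the large subunit and 28 of the small subunit. In both species the brain was divided into brain stem (BS), cerebellum (CE), diencephalon (DI), olfactory bulbs (OB), optic tectum (OT) and telencephalon (TE). The 5 fish of O. nasuta and the 5 fish of O. ventralis gave 1 library per brain part each, 60 libraries in all. All fish were wild-caught adult females kept with females of their own species only, untreated, and killed on the same day. Each species had its own aquarium and its own collecting site, and the O. nasuta fish were dissected first, so species cannot be told apart from these. The brain parts were removed in a fixed order in every fish (CE, then OB with TE, then OT, BS and DI), so brain part cannot be told apart from that order.

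A cytosolic ribosome is built from a large and a small subunit, each of ribosomal RNA and many different proteins. Large-subunit proteins (rpl) surround the site where amino acids are joined and the tunnel through which the new chain leaves, and small-subunit proteins (rps) surround the site where the mRNA is read. In vertebrates nearly all of their mRNAs begin with a 5′ terminal oligopyrimidine (TOP) motif, through which mTOR signalling controls their translation, so that the mRNA level and the amount of protein made can differ. A ribosome normally holds a single copy of most of these proteins, and cells of different types are known to hold different amounts of ribosomes.

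The 3′ mRNA-seq libraries used QuantSeq, which gives 1 fragment near the 3′ end of each transcript, so counts were not divided by transcript length. The 59 libraries used held 137128 to 1531632 gene counts (median 519523), of which 5456 to 49023 (median 16007) fell on the ribosomal protein genes. The OB library of O. nasuta fish 5 held 25798 counts and was left out of every test. BS, CE and OT libraries carried the markers of their part (hoxb3, the granule cell list, and pax7, pou4f2 and tfap2d), while hoxb5, also listed for BS, was at 0 everywhere. The paper reports too little RNA in some OB samples, without naming them. It proposes that the small size of the bulbs may account for the larger spread in OB. A pair of OB libraries went against their label. The bulb marker npff, a neuropeptide gene, had 1 read in O. nasuta fish 4 and 0 reads in O. ventralis fish 1, against 206 to 966 reads in the other 7 OB libraries, and the nearest library of both was a TE library. A second bulb gene, th (tyrosine hydroxylase of dopamine synthesis), had 1 and 0 reads in them and also 0 reads in O. ventralis fish 3, against 6 to 38 reads in the other 6. The O. ventralis fish 3 library had 238 npff reads and an OB library as its nearest, but its mean correlation was 0.825 with TE and 0.797 with OB libraries of its species. Results in OB are therefore also given without the pair and without all 3.

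Of the 68 genes, 67 passed the filter on low counts (over 15 CPM in at least 4 libraries, where CPM is the count after every library is brought to the same total), 39 of the large and 28 of the small subunit. The exception was rpl3l, which in mammals is the muscle paralogue of RPL3. It had 8 reads in all, at most 1 per library in 8 of the 60 libraries, below the floor of 3 counts that corresponds to 1.96 to 21.9 CPM over the libraries. Of 79 standard names of ribosomal protein genes, 66 were among the 68. The other 13, among them rps19, fau, rpl3 and rplp2, had no entry under that name and were not analysed here. The floor covers counting error only.

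The ribosomal protein genes took the largest share of all gene counts in OB and BS and the smallest in TE, in both species. In BS the share was 3.47%, 3.77% and 3.93% (lowest, median and highest of 5 fish) in O. nasuta, and 3.48%, 3.61% and 4.07% in O. ventralis. In TE it was 2.5%, 2.75% and 3.44% in O. nasuta, and 2.43%, 2.62% and 3.04% in O. ventralis. No BS library overlapped with a TE library of the same species, and O. nasuta fish 4 set the upper end of its TE group. In OB the shares were 4.02%, 3.62%, 4.24% and 2.57% in O. nasuta fish 1 to 4, and 2.83%, 5.55%, 2.98%, 4.09% and 3.99% in O. ventralis fish 1 to 5. Both OB libraries that lay near TE were the lowest of their group, and the highest value came from O. ventralis fish 2, the shallowest of the 59 libraries. The other parts lay between. CE had medians of 2.96% in O. nasuta and 3.06% in O. ventralis, DI 3.15% and 3.14% in the same order of species, and OT 3.07% and 3.03%. Between the species, the mean share differed by less than 1 SD in every part, for example 3.72 ± 0.196% in O. nasuta against 3.73 ± 0.240% in O. ventralis in BS (SD, n = 5 each). In bulk tissue, fewer cells of a type and less RNA per cell cannot be told apart.

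**Figure D1:**
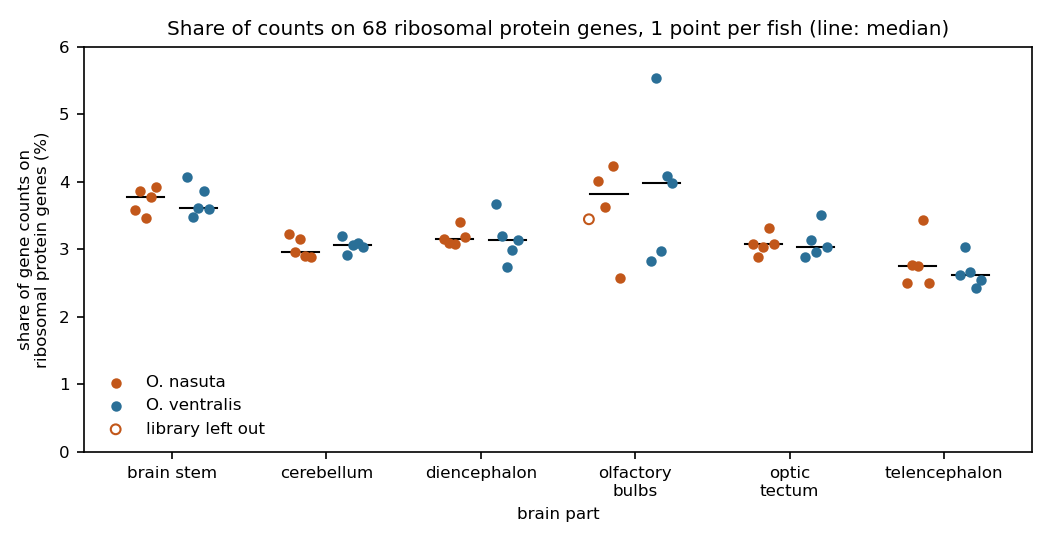
Share of all gene counts (%, y axis) that fell on the 68 ribosomal protein genes in each brain part (x axis), 1 point per fish, with the median as a line and the left-out OB library as an open circle. BS lies at 3.47% to 4.07% and TE at 2.43% to 3.44%, while OB spreads from 2.57% to 5.55% among the libraries used.

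The levels of single members covered a wide range. The mean over the 12 groups (part and species) had a median of 438 CPM over the 67 genes. The highest 5 were rpl36 (2514 CPM), rps25 (1434 CPM), rpl17 (1069 CPM), rps12 (1054 CPM) and rplp1 (963 CPM). Among these, rpl17 is a large-subunit protein that lines the exit tunnel, rplp1 belongs to the stalk that recruits elongation factors, and rps25 is needed in yeast and human cells for initiation at some internal ribosome entry sites. The lowest 5 were rpl7l1 (42.9 CPM), rpl13 (90.6 CPM), rpl15 (149 CPM), rpl9 (185 CPM) and rpl28 (222 CPM). The relative of rpl7, rpl7l1, thus stood at 42.9 CPM where rpl7 itself stood at 721 CPM, with 4 to 131 reads per library. The gene rps4x, which is X-linked in humans, averaged 511 CPM and was called in none of the comparisons below. The order describes tags counted per gene, and how well each 3′ end mapped to the genome of another cichlid, Oreochromis niloticus, was not tested.

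**Figure D2:**
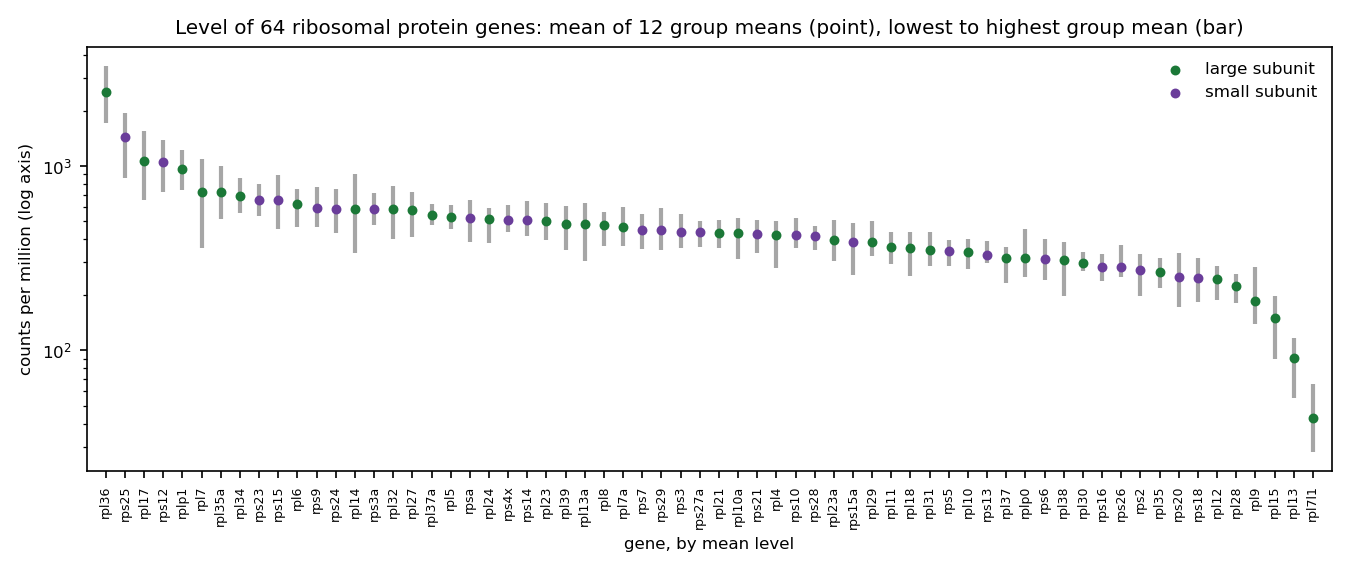
Mean level (CPM, log axis) of 64 of the 67 tested genes in order of level, as the mean of 12 group means, with bars from the lowest to the highest group mean; green marks the large and purple the small subunit. Members run from rpl36 at 2514 CPM to rpl7l1 at 42.9 CPM, and both subunits are spread over the whole order.

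Between brain parts the typical member had a smaller range than the typical gene tested. The highest group mean was 1.63-fold the lowest (median over the 67 genes), against 2.94-fold over all 11680 genes tested and 2.55-fold over the 2581 genes at least as high as rpl13. That cut (90.6 CPM) lies below the median member (438 CPM), so those genes are not matched to the members in level. The most variable were rpl7 (3.03-fold, group means of 361 to 1094 CPM), rpl14 (2.68-fold, 336 to 902 CPM) and rpl17 (2.36-fold). The least variable were rpl30 (1.27-fold), rpl37a (1.31-fold) and rps13 (1.32-fold). The lowest group mean was in TE for 33 members, and the highest was in OB for 30 and in BS for 20.

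Each part was then set against the mean of the remaining 5 parts of its species, within fish, in 12 comparisons with stage-wise adjusted p-values (edgeR quasi-likelihood test, joint test over the 12 comparisons and then Holm adjustment within each gene). The joint test was passed by 54 of the 67 genes (80.6%), against 76.5% of all genes tested, a share close to the background. Among the 13 that did not pass were rpl10, rpl21, rpl28, rpl30, rps13, rps26 and rps28. They also include rpl5 and rpl11, which in mammals bind Mdm2 together with ribosomal RNA, and rps27a, which is made as a fusion with ubiquitin. In all, 20 members were called in no comparison. Calls within a part mostly went one way: every call was higher in OB and BS and lower in DI, and in TE all but 1 in each species were lower.

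**Figure D3:**
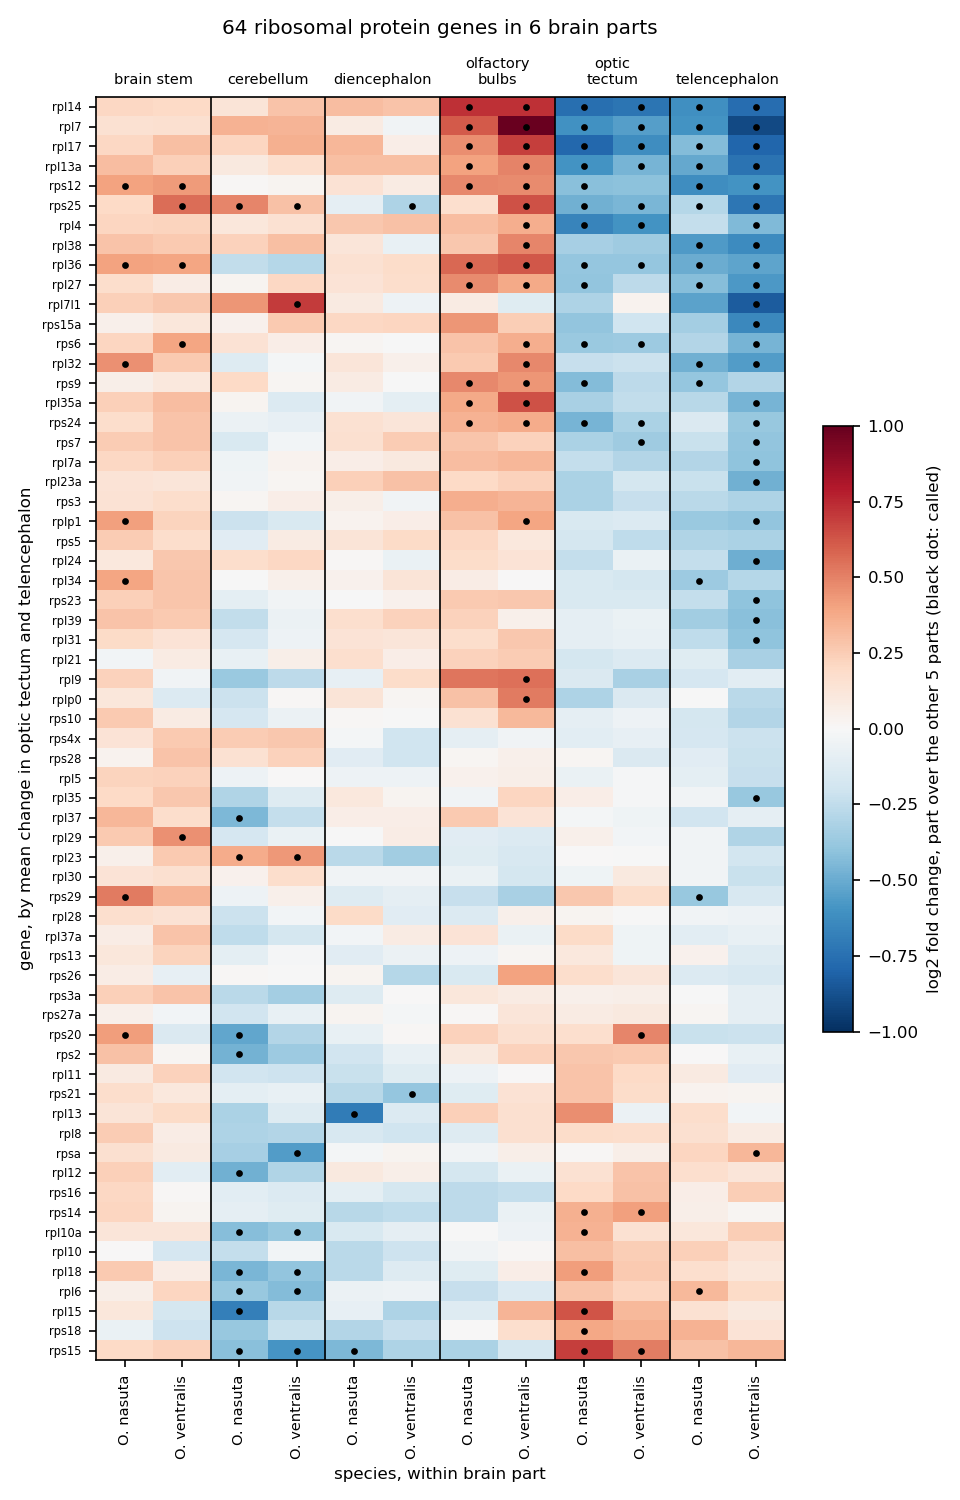
Log2 fold change (log2 FC) of each part over the average of the other 5 parts (colour), for 64 of the 67 genes (rows) in both species (columns, O. nasuta left of O. ventralis within each part), ordered by the mean of OT and TE; a black dot marks a call. Genes at the top, led by rpl14, rpl7 and rpl17, are high in OB and low in OT and TE, and genes at the bottom, led by rps15, are high in OT.

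In the olfactory bulbs, 11 members were higher and none lower in O. nasuta, and 19 were higher and none lower in O. ventralis. Of all genes, 21.6% were called in O. nasuta OB (13.5% higher, 8.05% lower) and 24.2% in O. ventralis OB (15.2% higher, 9.02% lower). All 11 of the O. nasuta calls were also called in O. ventralis (of all genes, 9.33% were called higher and 5.24% lower in both), among them rpl14, rpl7, rpl36, rpl17, rpl27, rpl13a, rps9 and rps12. The O. nasuta calls (16.4% of the members) were thus near the share of all genes called higher, and those of O. ventralis (28.4%) above it. The median log2 FC over the 67 members was 0.15 in O. nasuta and 0.17 in O. ventralis. In all 4 O. nasuta fish, 4 members were above the mean of the other parts and 1 below it, against 19.2% and 15.1% of all genes. In all 5 O. ventralis fish, 15 were above it and none below, against 10.6% and 11.4%.

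The large-subunit gene rpl14 had 926, 1050, 1031 and 601 CPM in OB of O. nasuta fish 1 to 4, against 313, 637 and 824 CPM (lowest, median and highest) in the 25 libraries of the other parts. In O. ventralis it had 515, 1128, 667, 850 and 892 CPM in OB of fish 1 to 5, against 286, 535 and 789 CPM in the other 25. Of the 7 OB libraries with npff well detected, all but that of O. ventralis fish 3 exceeded every library of the other parts of their species, and the pair near TE did not. This gave a log2 FC of 0.73 ± 0.13 (SE, adjusted p = 3.42e-06) in O. nasuta and 0.73 ± 0.12 (adjusted p = 6.21e-07) in O. ventralis.

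Its neighbour in this pattern was rpl7, also a large-subunit protein, with 1353, 1038, 1283 and 641 CPM in OB of O. nasuta fish 1 to 4, against 436, 778 and 1069 CPM in the other parts. In O. ventralis rpl7 had 746, 1688, 1067, 920 and 1051 CPM in OB, against 336, 549 and 937 CPM in the other parts. The groups overlapped in both species, in O. ventralis only through fish 1 and fish 4. The log2 FC was 0.61 ± 0.14 (adjusted p = 0.000576) in O. nasuta, where the call was lost without fish 3 (adjusted p = 0.0784), and 0.99 ± 0.13 (adjusted p = 1.12e-09) in O. ventralis, the largest increase of any member in any part.

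The most abundant member, rpl36, had 3361, 4125, 3717 and 2705 CPM in OB of O. nasuta and 1805, 4999, 2289, 4367 and 3872 CPM in OB of O. ventralis, against medians of 2436 CPM and 1934 CPM in the other parts of these species. Its spread between O. ventralis bulbs was thus wider than its difference from the other parts, and fish 1 and fish 3 lay inside their range. In O. nasuta every OB library except that with 4125 CPM also lay inside the range of the other parts, below the BS library of fish 1. The log2 FC was 0.57 ± 0.13 (adjusted p = 0.000462) in O. nasuta and 0.62 ± 0.12 (adjusted p = 1.42e-05) in O. ventralis. Of the 8 calls made in O. ventralis OB alone, rps25 had a log2 FC of 0.63 ± 0.10 (adjusted p = 1.75e-07), against 0.16 ± 0.11 (adjusted p = 0.390) in O. nasuta, and the joint test of a difference between the species is given further on. The other 7 were rpl4, rpl9, rpl32, rpl38, rplp0, rplp1 and rps6, with log2 FC of 0.36 to 0.55.

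Which libraries entered decided how many members were called in OB. For these changed sets of libraries the share of all genes called is not given, so the counts have no background beside them. Without the pair of OB libraries near TE, 28 members were higher in O. nasuta OB and 23 in O. ventralis OB, none lower, and the medians were 0.31 and 0.24. Without O. ventralis fish 3 OB as well, 29 were higher in O. nasuta OB and 28 in O. ventralis OB, and none lower. Leaving out 1 O. nasuta fish at a time gave 2 calls (without fish 3) to 22 calls (without fish 4), with 4 without fish 1 and 5 without fish 2. In O. ventralis the count fell to 11 without fish 2 and to 12 without fish 4, and to 10 higher and 1 lower without the shallowest library alone. The calls of rpl14 held in all of these fits. The 2 microglial markers found among 7 listed (csf1r and cd74) summed to 121 to 331 CPM in O. nasuta OB and 198 to 1356 CPM in O. ventralis OB, against 119 to 163 CPM and 108 to 290 CPM in TE. In OB most of this sum was cd74, with 44 to 338 reads per library against 0 to 20 reads of csf1r. Reads mapped to several places were not counted, and such a read can give several alignments. These alignments, not reads, amounted to 19.8 to 24.7 per 100 unique reads in O. nasuta OB and 24.7 to 35.5 in O. ventralis OB. In TE they were 18.0 to 22.8 and 18.3 to 20.2. Their part in the result was not tested.

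In the brain stem, 7 members were higher in O. nasuta and none lower, and in O. ventralis 6 were higher and none lower. Of all genes, 20.2% were called in O. nasuta BS (13.9% higher, 6.33% lower) and 18.8% in O. ventralis BS (12.7% higher, 6.06% lower), so the number of calls was not above the background. The log2 FC was positive for 65 of the 67 members in O. nasuta and for 57 in O. ventralis. Its median over the members was 0.20 in both species, against 0.03 over all genes in both. In the single fish, 28 of the 67 members were above the mean of the other parts in all 5 O. nasuta fish and 19 in all 5 O. ventralis fish, while none was below it in all fish of either species. Of all genes, 18.3% were above it in every O. nasuta fish and 18% in every O. ventralis fish, and 10% and 9.14% below it. The shift was about the same in both subunits (0.20 for small and 0.20 for large subunit in O. nasuta, 0.18 and 0.22 in O. ventralis).

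Of the members, rpl36 and rps12 were called in BS of both species (of all genes, 9.85% were called higher and 4.09% lower in both). In BS of O. nasuta fish 1 to 5, rpl36 had 3809, 2482, 3266, 3255 and 3214 CPM, against 1428, 2337 and 4125 CPM in the other parts, and in O. ventralis it had 2864, 3546, 2692, 3092 and 2421 CPM, against 1591, 1894 and 4999 CPM. The BS libraries lay in the upper part of the range of the rest, under the highest OB libraries. This gave a log2 FC of 0.41 ± 0.12 (adjusted p = 0.00952) in O. nasuta and 0.39 ± 0.12 (adjusted p = 0.0109) in O. ventralis, and the call was lost without fish 1 of the species concerned (adjusted p = 0.279 and 0.0962). For the small-subunit gene rps12 the log2 FC was 0.40 ± 0.14 (adjusted p = 0.0436) and 0.43 ± 0.14 (adjusted p = 0.0283). In fits that left out 1 fish, its O. nasuta call held in 2 of 10 and its O. ventralis call in 5 of 10. For comparisons of parts, here and below, 5 of the 10 fits left out a fish of the other species. Those 5 kept every library of the parts compared. In O. nasuta the other calls were rps29 (log2 FC 0.52), rpl32 (0.46), rps20 (0.42), rplp1 (0.41) and rpl34 (0.40). In O. ventralis they included rps25 (0.56), rpl29 (0.45) and rps6 (0.40), whose protein is phosphorylated by S6 kinase downstream of mTOR. With library sizes left as total counts, 12 members were called in O. nasuta BS and 15 in O. ventralis BS. The share of all genes called with that scaling is not given here.

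Levels of cell type markers differed in BS too. The oligodendrocyte list (4 of 6 markers found) summed to 1710 to 2286 CPM in O. nasuta BS and 2219 to 3112 CPM in O. ventralis BS, against 157 to 1028 CPM and 184 to 1073 CPM in the libraries of the other parts. The sum of csf1r and cd74 was 570 to 813 CPM and 535 to 952 CPM in BS, O. nasuta first, and is not given by gene. Genes of proliferating cells (6 of 6 found) stayed at 9.59 to 50.2 CPM in every part. The part of these cells in the levels of ribosomal protein genes was not tested.

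The telencephalon had the most members called lower of any part in O. ventralis, and as many as OT in O. nasuta. In O. nasuta 13 were lower and 1 higher, and in O. ventralis 26 were lower and 1 higher, where 29% of all genes were called in O. nasuta (15.8% higher, 13.1% lower) and 28.3% in O. ventralis (16% higher, 12.2% lower). The median log2 FC was −0.17 in O. nasuta and −0.29 in O. ventralis, with small and large subunits alike (−0.16 and −0.17 in O. nasuta, −0.22 and −0.30 in O. ventralis). It was positive for 18 members in O. nasuta and 13 in O. ventralis. In O. ventralis 36 of the 67 members were below the mean of the other parts in all 5 fish, and 5 above it. In O. nasuta 8 were below it and 6 above it in all 5 fish. Of all genes, 17.2% were below it and 23.3% above it in every O. ventralis fish, and 18.8% and 22% in every O. nasuta fish.

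Called lower in TE of both species (9.01% of all genes, with 12.6% higher in both) were 10 members: rpl7, rpl14, rpl17, rpl13a, rpl27, rpl32, rpl36, rpl38, rps12 and rps25. In TE, rpl7 had 484, 534, 504, 711 and 469 CPM in O. nasuta fish 1 to 5, against 436, 825 and 1353 CPM in the other parts. In O. ventralis it had 389, 379, 348, 336 and 352 CPM, against 349, 617 and 1688 CPM. The 5 O. ventralis values lay at the bottom of the range, with 1 library of another part below the highest of them. The log2 FC was −0.59 ± 0.14 (adjusted p = 0.000588) in O. nasuta and −0.91 ± 0.14 (adjusted p = 4.88e-07) in O. ventralis, the largest decrease of any member.

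For rpl14 the TE values were 386, 365, 325, 724 and 313 CPM in O. nasuta and 314, 392, 399, 291 and 286 CPM in O. ventralis, against medians of 653 and 591 CPM in the other parts. Fish 4 of O. nasuta was high and the other 4 TE libraries of that species were low. This gave a log2 FC of −0.61 ± 0.13 (adjusted p = 8.93e-05) in O. nasuta and −0.76 ± 0.13 (adjusted p = 2.58e-06) in O. ventralis. The log2 FC of rpl13a, in human myeloid cells a part of the complex that silences inflammatory mRNAs, was −0.51 ± 0.13 and −0.74 ± 0.13 (adjusted p = 0.00151 and 4.02e-06), and that of rpl38, needed in mouse embryos for translation of Hox mRNAs, was −0.57 ± 0.13 and −0.63 ± 0.13 (adjusted p = 0.000479 and 0.000162), O. nasuta first. The single calls in the other direction were rpl6 in O. nasuta (0.33 ± 0.10, adjusted p = 0.0248) and rpsa in O. ventralis (0.33 ± 0.10, adjusted p = 0.0305). For rpl6 the O. ventralis log2 FC was 0.19, and for rpsa the O. nasuta log2 FC was 0.22, neither of which passed.

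The O. nasuta count depended on which fish were left out. The share of all genes called in these fits is not given here. The TE library of fish 4 had the highest share of ribosomal protein counts and the highest npff level in its group, and its OB library lay near TE. The count also rose in the run without the pair of OB libraries near TE, which kept that TE library (see the section on processing). The TE library was not left out alone, and the cause of the rise was not tested. Without fish 4, 26 members were lower in O. nasuta TE and none higher. Without fish 1 and without fish 5 there were 6 calls each, and without fish 3 there were 8. In O. ventralis, leaving out 1 fish gave 18 to 28 calls. In O. nasuta TE the call of rpl13a was lost without fish 1 or fish 5, that of rpl36 without fish 1, that of rpl17 in 7 of 10 such fits and that of rps25 in 8 of 10.

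In the optic tectum members were called in both directions, as in CE below, and the numbers called higher were not above the background. In O. nasuta 6 members were higher and 13 lower, and in O. ventralis 3 were higher and 10 lower, where 23.4% of all genes were called in O. nasuta (14.4% higher, 8.96% lower) and 20.1% in O. ventralis (12.7% higher, 7.39% lower). Called lower in both species were 9 members (5.6% of all genes): rpl14, rpl17, rpl4, rpl7, rpl13a, rpl36, rps6, rps24 and rps25. Called higher in both were rps15 and rps14 (10.2% of all genes). With library sizes left as total counts, 9 were higher and 8 lower in O. nasuta, and 7 higher and 6 lower in O. ventralis. No share of all genes is given for that scaling.

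In OT, rpl14 had 364, 365, 387, 428 and 398 CPM in O. nasuta and 329, 354, 338, 359 and 331 CPM in O. ventralis, against medians of 668 CPM and 591 CPM in the other parts. The 5 libraries of each species lay close together, and of the other parts only TE libraries reached as low in O. nasuta. This gave a log2 FC of −0.76 ± 0.13 (adjusted p = 2.58e-06) in O. nasuta and −0.73 ± 0.14 (adjusted p = 8.11e-06) in O. ventralis. For rpl17 it was −0.78 ± 0.15 and −0.62 ± 0.15 (adjusted p = 4.02e-05 and 0.00127), with 673, 504, 636, 759 and 699 CPM in O. nasuta OT and 536, 658, 624, 893 and 888 CPM in O. ventralis OT. For rpl4, whose protein also lines the exit tunnel, it was −0.66 ± 0.11 and −0.60 ± 0.11 (adjusted p = 1.32e-06 and 2.10e-05). The calls of rpl14, rpl17, rpl4, rpl7, rpl13a and rps25 in OT held in both species in all 10 fits that left out 1 fish. The others held less often: rpl36 in 6 of 10 fits in O. nasuta and 8 in O. ventralis, rps6 in 7 and 6, and rps24 in 10 and 5.

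Against these, rps15, which joins late in the maturation of the small subunit and reaches the decoding site in yeast and human ribosomes, had 795, 836, 891, 1022 and 861 CPM in O. nasuta OT, against 340, 500 and 1224 CPM in the other parts. In O. ventralis OT it had 744, 967, 914, 915 and 948 CPM, against 433, 621 and 1090 CPM. In O. nasuta a single library of another part, BS of fish 2, exceeded the lowest OT library. In O. ventralis the overlap was wider, with libraries of other parts, TE among them, above the lowest OT library. The highest of them (1090 CPM) was also above the highest OT library (967 CPM). The log2 FC of rps15 was 0.69 ± 0.12 (adjusted p = 3.78e-06) in O. nasuta and 0.51 ± 0.12 (adjusted p = 0.00121) in O. ventralis, where the call was lost without fish 5 (adjusted p = 0.0508). For rps14, a protein of the small-subunit platform, the OT values were 613, 573, 626, 651 and 534 CPM in O. nasuta and 542, 595, 685, 799 and 603 CPM in O. ventralis, against medians of 461 and 492 CPM. Its log2 FC of 0.35 ± 0.11 (adjusted p = 0.0325) and 0.41 ± 0.11 (adjusted p = 0.00779) held in 4 and in 8 of 10 fits that left out 1 fish. The other members called higher were rpl15 (0.63), rpl18 (0.42), rps18 (0.39) and rpl10a (0.35) in O. nasuta, and rps20 (0.49) in O. ventralis.

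**Figure D4:**
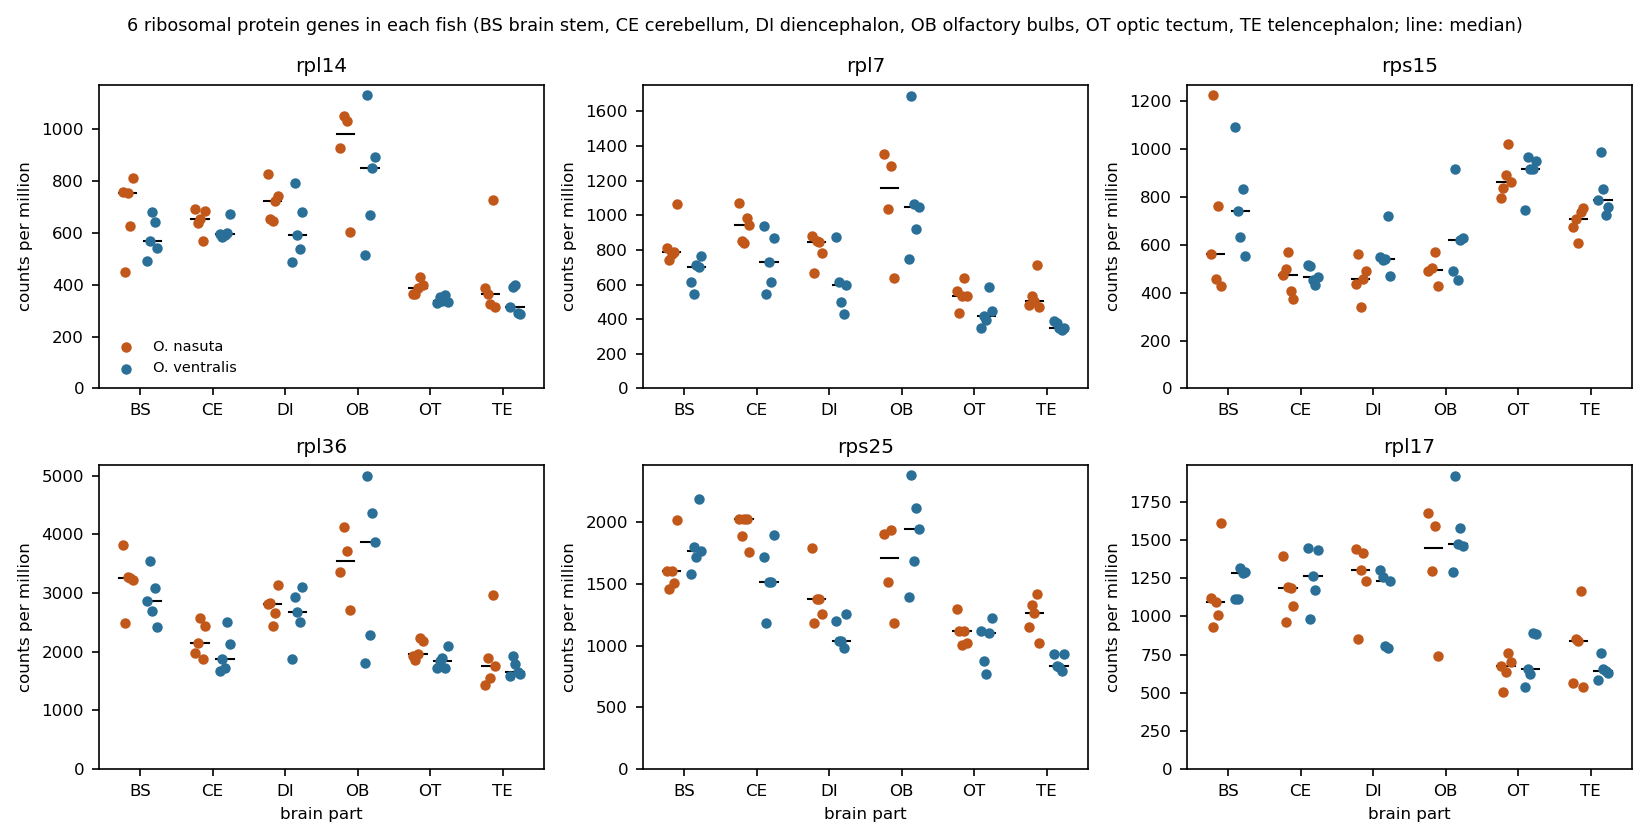
Level (CPM) of 6 members in every library used, by brain part (BS, CE, DI, OB, OT, TE), 1 point per fish with O. nasuta left of O. ventralis and the median as a line. The levels of rpl14, rpl7 and rpl17 peak in OB and are low in OT and TE, rps15 is at 744 to 1022 CPM in OT but at 374 to 571 CPM in CE, and rps25 in TE is at 1022 to 1415 CPM in O. nasuta against 797 to 931 CPM in O. ventralis.

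In the cerebellum, 2 members were higher and 9 lower in O. nasuta, and 3 were higher and 5 lower in O. ventralis. Calls were most common there over all genes, with 37.2% in O. nasuta (17.3% higher, 19.9% lower) and 41% in O. ventralis (19.2% higher, 21.8% lower), so the members' counts did not exceed the background shares. Lower in both species (17.1% of all genes) were rps15, rpl18, rpl6 and rpl10a, and higher in both (15% of all genes) were rps25 and rpl23, a protein at the interface between the subunits. In CE rps15 had 473, 499, 571, 405 and 374 CPM in O. nasuta and 517, 512, 453, 433 and 465 CPM in O. ventralis, against medians of 590 and 739 CPM in the other parts. The CE libraries of O. ventralis lay at the bottom of the range, and the log2 FC was −0.42 ± 0.14 (adjusted p = 0.0281) in O. nasuta and −0.59 ± 0.13 (adjusted p = 0.000507) in O. ventralis.

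The level of rps25 in CE was 2025, 1885, 2021, 2021 and 1754 CPM in O. nasuta, against 1003, 1352 and 2016 CPM in the other parts. In O. ventralis it was 1719, 1179, 1511, 1510 and 1897 CPM, against 771, 1200 and 2380 CPM in the other parts. The O. nasuta values stood among the highest of the species, with 4 libraries of other parts above the lowest of them. For rps25 this was a log2 FC of 0.49 ± 0.10 (adjusted p = 5.41e-05) in O. nasuta and 0.30 ± 0.10 (adjusted p = 0.0325) in O. ventralis. For rpl23, with 762, 594, 662, 650 and 473 CPM in O. nasuta CE and 651, 585, 600, 608 and 669 CPM in O. ventralis CE against medians of 491 and 449 CPM, it was 0.37 ± 0.12 (adjusted p = 0.0432) and 0.43 ± 0.12 (adjusted p = 0.00641). In fits that left out 1 fish, rps15 was called in 4 of 10 in O. nasuta, rpl23 in 5 of 10 in O. nasuta, and rps25 in 6 of 10 in O. ventralis. The low-count gene rpl7l1 was called higher in O. ventralis CE (0.70 ± 0.17, adjusted p = 0.00101; not without fish 1, adjusted p = 0.252), with 0.44 ± 0.19 (adjusted p = 0.298) in O. nasuta. Its partner rpl7 had log2 FC of 0.35 and 0.34 in CE, neither of which passed.

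In the diencephalon, 2 members were lower and none higher in each species, where 18.2% of all genes were called in O. nasuta (11.6% higher, 6.53% lower) and 20.6% in O. ventralis (12.5% higher, 8.12% lower). No member was called in both species, where 9.36% of all genes were called higher and 4.92% lower in both. In O. nasuta these were rpl13 (−0.70 ± 0.19, adjusted p = 0.00501) and rps15 (−0.45 ± 0.13, adjusted p = 0.0150), and in O. ventralis rps21 (−0.38 ± 0.12, adjusted p = 0.0360) and rps25 (−0.31 ± 0.11, adjusted p = 0.0325). In the other species rpl13 had −0.13, rps15 −0.31, rps21 −0.28 and rps25 −0.09. The median over the members was 0.01 in O. nasuta and −0.01 in O. ventralis. Leaving out 1 fish gave 0 to 2 calls in O. nasuta (0 without fish 1, 1 without fish 3 or fish 5) and 0 to 6 in O. ventralis, with 0 without fish 2, 3, 4 or 5 of that species and 6 without O. nasuta fish 4.

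To see which members moved relative to the family rather than with it, the 12 comparisons were repeated with the summed counts of the members as the size of each library. In BS almost nothing was left, with no call in O. nasuta (edgeR; 3 members at an unadjusted p under 0.05, DESeq2 not run on this scale) and 1 member higher and 1 lower in O. ventralis. In OT 13 members were higher and 5 lower in O. nasuta, and 8 higher and 4 lower in O. ventralis. In TE 8 were higher and 3 lower in O. nasuta, and 10 higher and 5 lower in O. ventralis. In OB 2 were higher and 5 lower in O. nasuta, and 4 higher and 6 lower in O. ventralis. In CE 3 were higher and 4 lower in O. nasuta, and 4 higher and 4 lower in O. ventralis. Of all genes, the same scaling called 20% in O. nasuta BS and 18.2% in O. ventralis BS. It called 22.5% and 18.4% in OT, 29.4% and 31% in TE, 19.4% and 23.6% in OB, 34.7% and 38.5% in CE, and 15.5% and 17.9% in DI, where 2 members (O. nasuta) and 0 members (O. ventralis; 13 at an unadjusted p under 0.05) were called. Higher calls alone were 18.2% of all genes in O. nasuta OT and 14.6% in O. ventralis OT, and 22% and 25.6% in TE. The members' higher calls in OT and TE were near or below these shares. This scaling shifts all other genes where the family moves, so the shares are not a matched background. The median log2 FC over all genes was 0.16 and 0.13 in OT and 0.21 and 0.28 in TE, O. nasuta first. In OB it was −0.18 and −0.20. In both species together it called 12% of all genes higher and 2.68% lower in OT, 18.4% and 4.48% in TE, 5.04% and 7.77% in OB, and 14.5% and 15.2% in CE.

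Relative to the family, rpl14 and rpl7 were higher in OB and lower in both TE and OT in both species. In OB rpl14 had a log2 FC of 0.53 ± 0.13 in O. nasuta and 0.44 ± 0.12 in O. ventralis (adjusted p = 0.00205 and 0.00588), in TE −0.43 ± 0.13 and −0.45 ± 0.13 (adjusted p = 0.0125 and 0.00887), and in OT −0.60 ± 0.13 and −0.59 ± 0.14 (adjusted p = 0.000249 and 0.000510). In OT rpl4 and rpl17 were also lower in both species. In the other direction, rps15 had 0.83 ± 0.13 and 0.65 ± 0.13 in OT (adjusted p = 8.47e-08 and 4.74e-05), 0.53 ± 0.13 and 0.64 ± 0.13 in TE (adjusted p = 0.00143 and 4.74e-05), and −0.50 ± 0.16 and −0.46 ± 0.14 in OB (adjusted p = 0.0137 and 0.0135). With rps15, the members rps14, rps18, rpl18 and rpl6 were higher in OT of both species, and rpl6, rpl8, rpl10, rpl12, rpl18, rps18 and rpsa were higher in TE of both species. The members lower in OB of both were rpl6, rps15, rps16 and rps29. Of the 67 members, 5 were thus higher in OT, 8 higher in TE and 4 lower in OB of both species. These counts were not above the shares of all genes (12%, 18.4% and 7.77% in the same order). In the opposite directions, 4 members were lower in OT, 2 lower in TE and 2 higher in OB of both species. There the shares of all genes were 2.68%, 4.48% and 5.04%. Since all genes shifted on this scale, neither set of shares is a matched background. In CE rpl23 (0.44 ± 0.13 and 0.47 ± 0.12) and rpl7 (0.42 ± 0.12 and 0.37 ± 0.12) were higher and rpl18 (−0.39 ± 0.13 and −0.36 ± 0.12) lower in both. The calls of rpl14, rpl4, rps15 and rps14 in OT and of rps15 and rpl6 in TE held in both species in all 10 fits that left out 1 fish. Others were often lost: rpl18 in CE held in 5 of 10 fits in O. nasuta and 2 in O. ventralis, rpl6 in OT in 4 in O. ventralis, rpl7 in TE in 5 in O. nasuta, and rps29 in OB in 3 in O. nasuta. Also, the number of calls in O. nasuta OB was 0 without fish 2, 1 without fish 1 and 3 without fish 3.

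A ratio within a library needs no scaling between libraries. The counts of rpl14 over those of rps15, a pair chosen after their values were seen and given as a description, had a median of 1.85 (1.41 to 2.09) in O. nasuta OB and 1.37 (1.05 to 1.47) in O. ventralis OB. In OT the ratio was 0.437 (0.418 to 0.463) in O. nasuta and 0.370 (0.350 to 0.442) in O. ventralis, and in TE 0.534 (0.415 to 0.984) and 0.398 (0.378 to 0.480). In CE it was 1.40 (1.14 to 1.82) and 1.31 (1.14 to 1.45), and in DI 1.58 (1.17 to 1.89) and 1.10 (0.744 to 1.47). The ratio thus stood below 1 in every OT and TE library and above 1 in every CE and OB library, also in the pair of OB libraries that lay near TE, while BS spread from 0.367 to 1.89 in O. nasuta and from 0.449 to 1.07 in O. ventralis.

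**Figure D5:**
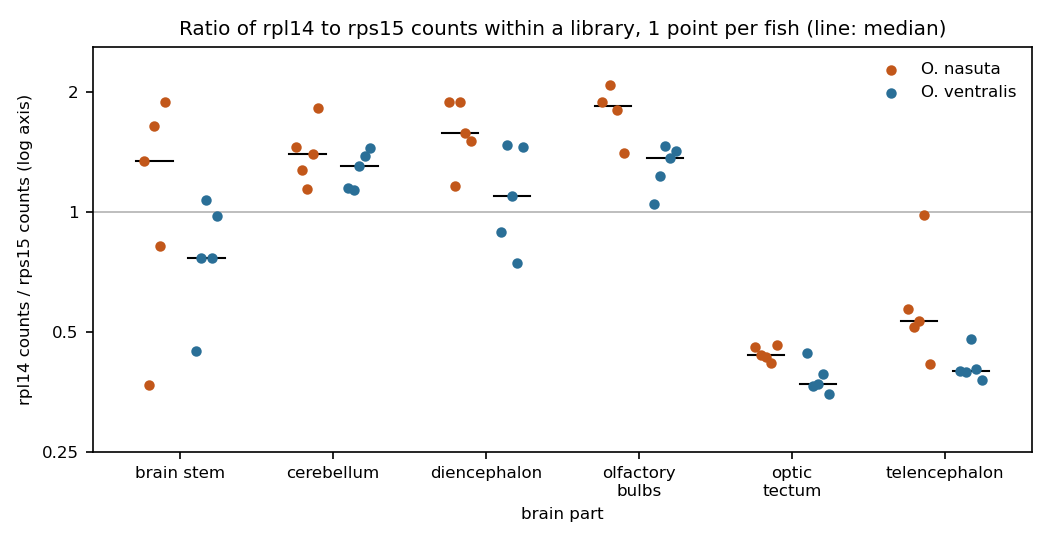
Ratio of rpl14 to rps15 counts within each library (log axis) by brain part, 1 point per fish, with the median as a line. All OT libraries lie between 0.350 and 0.463 and all OB libraries between 1.05 and 2.09, with a wide spread in BS.

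Over the 12 group means, the members closest to rpl14 in log2 level were rpl13a, rpl4, rpl17, rpl7 and rps15a (Pearson's r = 0.95 each), then rps9, rpl27, rps3, rpl38 and rps12 (0.94 to 0.91). Closest to rps15 were rpl18 (0.93), rpl10a (0.90), rps14 (0.88), rpl8 (0.84) and rpl6 (0.83). Between rpl14 and rps15 it was −0.76, whereas over the deviations of the 59 libraries from their group means it was 0.00. Over all 2211 pairs of members the median was 0.34 over group means and 0.48 over deviations within groups. These are descriptions, since the points share fish, libraries and scaling.

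Whether differences between parts depended on species was tested jointly over 15 between-species differences of pairs of parts. No member passed (edgeR; 2 members at an unadjusted p under 0.05), where 47 of all genes did (0.402%), and DESeq2 called 1 member. The lowest adjusted p was that of rps25 (edgeR, adjusted p = 0.128), and this was the gene that passed with DESeq2, without O. nasuta fish 5, without O. ventralis fish 1 and without the pair of OB libraries near TE. The next adjusted p was 0.530, of rps20.

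Within a part, O. nasuta and O. ventralis were compared over fish. In TE 2 members were called, both higher in O. nasuta (1.15% of all genes were called higher there, 2.10% in either direction). The level of rps25 was 1153, 1325, 1267, 1415 and 1022 CPM in O. nasuta TE, against 931, 838, 825, 797 and 929 CPM in O. ventralis TE. That of rpl7 was 484, 534, 504, 711 and 469 CPM, against 389, 379, 348, 336 and 352 CPM. Both genes had every O. nasuta fish above every O. ventralis fish, and rpl39, which was not called, also had no overlap between species in TE (4.79% of all genes). In CE 6 members had none (4.47% of all genes), in OT 2 (4.59%), in BS 1 (3.32%), in OB 1 (2.93%) and in DI 0 (3.55%). This gave a log2 FC of 0.52 ± 0.14 for rps25 (adjusted p = 0.0232) and 0.58 ± 0.17 for rpl7 (adjusted p = 0.0454). Leaving out 1 fish kept the call of rps25 in 5 of 10 fits and that of rpl7 in 2 of 10. In the other 5 parts no member was called by edgeR, where 1.06% (BS), 2.48% (CE), 1.46% (DI), 2.73% (OB) and 1.82% (OT) of all genes were. At an unadjusted p under 0.05 there were 3 members in BS, 9 in CE, 5 in DI, 7 in OB, 3 in OT and 5 in TE, and DESeq2 called 1 in TE and 0 in each other part.

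Other genes of translation were read in the same comparisons, with the same adjustment, and pairs of values are log2 FC in O. nasuta and then in O. ventralis. Of 73 mitochondrial ribosomal protein genes, which serve the separate ribosomes of mitochondria, 57 were tested and 23 passed the joint test, fewer than the 76.5% of all genes. In TE 5 were higher and 0 lower in O. nasuta, and 4 higher and 1 lower in O. ventralis, where 15.8% and 16% of all genes were higher, so these counts were not above the background. Their medians were 0.15 and 0.09. The 2 with the lowest joint p were mrpl34, with −0.94 and −1.27 in OB and 1.16 and 0.89 in OT, and mrpl13, with 0.64 and 0.98 in TE.

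Genes that share the TOP motif or work beside the ribosome had values of both signs in TE. Of 17 tested other genes with TOP mRNAs (22 listed), 3 were lower in O. nasuta TE and 6 in O. ventralis TE (of all genes, 13.1% and 12.2%), and none was higher. Among the elongation factors (6 of 8 tested, all past the joint test), 1 and 3 were lower in TE and none higher. The lists overlap: eef1g (log2 FC −0.36 in O. ventralis TE, called lower) is in both, so these calls are partly the same. The gene eef1b2, a subunit of the exchange factor that recharges elongation factor eEF1A, had −0.47 ± 0.12 (adjusted p = 0.00337) in O. nasuta TE and −0.78 ± 0.13 (adjusted p = 9.08e-07) in O. ventralis TE. The poly(A)-binding protein gene pabpc4 had −3.23 and −2.24 in TE and 1.96 and 2.11 in CE, and pabpc1 had −0.56 and −0.41 in OT and 0.48 and 0.51 in CE. Of the initiation factors (29 of 38 tested, 18 past the joint test), 4 were higher in TE of each species, and 4 and 5 lower. The helicase gene eif4a2 had 1.12 and 1.23 in TE but −0.98 and −1.20 in OB, the reverse of rpl14 in both, while eif3j had −0.75 and −0.78 in TE and 0.62 and 0.42 in OB.

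Of the ribosome biogenesis genes, 70 of 107 were tested and 27 passed the joint test, again a smaller share than of all genes. In CE 11 were higher and 1 lower in O. nasuta, and 12 higher and 1 lower in O. ventralis, where 17.3% and 19.2% of all genes were higher, so these counts were not above the background. In OT 9 and 6 were lower (8.96% and 7.39% of all genes) and none higher, and in OB 5 and 6 were higher (13.5% and 15.2% of all genes) and none lower. The core protein of box C/D small nucleolar RNA complexes, nop56, had −1.10 and −0.69 in OT and 0.70 and 0.59 in OB, and nsa2, needed for large-subunit maturation in yeast, had −0.78 and −0.52 in OT and 0.46 and 0.94 in CE. Of the mTOR and LARP1 genes (11 of 18 tested, 8 past the joint test), 2 were higher in OB of each species. One of them was akt1s1, a component of mTOR complexes in mammals, with 0.47 and 0.57 in OB and −0.61 and −0.51 in TE. Another gene of that list, larp4, had 0.50 and 0.54 in CE.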

How the data were processed

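QuantSeq 3′ libraries were made from 6 brain parts of 10 female fish. The authors deposited raw read counts per gene, 1 file per library: reads passed FastQC and trimming, were mapped with STAR 2.5.2b to the Oreochromis niloticus genome, and unique reads were counted with HTSeq 0.6.1p1. Reads that map equally well to near-identical copies are thus missing, and 3′ ends that diverge from O. niloticus may be undercounted, which was not tested. Summary lines that name no gene were left out.

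Samples were grouped by labelled species and brain part. The fish number in the labels pairs the parts of 1 fish (mean correlation of deviations 0.0534 over 145 pairs, against −0.0134 over 580 pairs of different fish) but not the species (−0.0072 over 29 pairs).

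Genes over 15 CPM in at least 4 libraries were kept (11680 genes, 98.0% of counts) and scaled by TMM. Quasi-likelihood models (edgeR 4.0.16, limma 3.58.1, R 4.3.3, robust) had fish and part-within-species terms over 59 libraries. The 12 comparisons set a part against the mean of the remaining 5 of its species, with a joint test at a false discovery rate of 5% and Holm adjustment within a gene. The joint test over 15 between-species differences used the same fit. Within parts, the species were compared in a model that had no fish terms (Benjamini-Hochberg adjustment for each part). A ± after a log2 FC is its SE. The genes, the gene lists and the rules for genes named here (the highest, lowest, most and least variable members, calls shared by both species with the largest change, and every gene of a count of 5 or fewer) were chosen with earlier results of these data known. Alternatives changed the scaling (also to DESeq2 1.42.0), filter, model, adjustment and libraries. Some genes counted in the totals are not reported here by name or drawn. Scripts were tested on simulated data.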

Additional observations from a re-analysis of the deposited data

Results flagged for a closer look

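In the 132 groups of libraries tested for a value far from the rest (10 members by group, and the share of counts), 11 had 1, where chance flags about 1 in 20 groups. In O. nasuta BS, fish 5 was high for rpl7 (1063 CPM, against 744 to 810 CPM in the other 4), rpl17 (1613 CPM, against 930 to 1124 CPM) and rps25 (2016 CPM, against 1459 to 1601 CPM). In the same part fish 1 was high for rps12 (1468 CPM, against 1219 to 1289 CPM) and fish 2 for rps14 (869 CPM, against 449 to 558 CPM). In O. nasuta TE, fish 4 was high for rpl14 (724 CPM, against 313 to 386 CPM) and rpl7 (711 CPM, against 469 to 534 CPM). In O. ventralis CE, fish 5 was high for rpl14 (673 CPM, against 583 to 599 CPM) and fish 4 for rps12 (1205 CPM, against 967 to 1002 CPM). In O. ventralis OT, fish 1 was low for rps15 (744 CPM, against 914 to 967 CPM), and in O. ventralis TE fish 3 was low for rpl6 (592 CPM, against 677 to 700 CPM).

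The OB library of O. nasuta fish 5, which entered no test, had 3.45% of its counts on ribosomal protein genes, inside the 2.57% to 4.24% of the other 4 OB libraries of the species.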

How the results depend on the processing

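No log2 FC of a call named here changed sign under any alternative run, but the balance of higher and lower calls turned in some. With total counts it was 9 higher and 8 lower in O. nasuta OT and 7 and 6 in O. ventralis OT, without a filter 4 and 3 in O. ventralis CE, with DESeq2 size factors or all 60 libraries 1 and 0 in O. ventralis DI, and with the family total without its 3 highest members 4 and 2 in O. nasuta CE and 5 and 3 in O. ventralis OB. Leaving out 1 fish turned it in O. ventralis CE and DI and, relative to the family, in O. nasuta CE and OB and O. ventralis OB. Values below are members called, with the main count in brackets at first mention. No share of all genes is given for these runs or for the fits that left out 1 fish. With DESeq2 size factors O. ventralis DI had 1 (2) and the species comparison in TE 1 (2). With total counts O. nasuta BS had 12 (7), O. ventralis BS 15 (6) and species in TE 1. Without a filter O. ventralis BS had 3 and DI 0, and with edgeR's own filter species in TE had 1. With all 60 libraries O. nasuta OB had 6 (11) and O. ventralis DI 1. The DESeq2 test gave 1 (0) species-dependent member and 1 between species in TE, and the fit without robust estimation gave 1 in TE. The fit without fish as a replicate block gave 1 in O. ventralis DI and lost 6 of 231 named calls. A block of the shared numbers changed no call between species. Benjamini-Hochberg adjustment per comparison gave 17, 29 (19) and 23 (14) in O. nasuta OB, OT and TE, and 12, 19 (8) and 5 in O. ventralis BS, CE and DI. Each part fitted alone gave 2 (0) between species in CE (rpl15 and rps25) and 1 (0) in OT (rps20). Relative to a family total without its 3 highest members, O. ventralis BS had 1 (2). Alternatives without certain OB libraries were chosen after seeing the data. Without the pair of OB libraries near TE there were 28 in O. nasuta OB and 24 in its TE, 13 in O. ventralis CE and 5 in its DI, 1 species-dependent, and relative to the family 12 (7) in O. nasuta CE and 2 (0) in O. ventralis DI. Without O. ventralis fish 3 OB as well there were 4 (2), 29 and 25 in O. nasuta DI, OB and TE, 15, 5 and 22 (13) in O. ventralis CE, DI and OT, 1 species-dependent, and relative to the family 1 (0), 13 and 4 (2) in O. nasuta BS, CE and DI and 4, 13 (8), 4 and 21 (12) in O. ventralis BS, CE, DI and OT. Without the shallowest OB library O. ventralis BS had 11, OB 11 (19), and DI relative to the family 1, and rpl39 was called between species in OB (1, main 0). With the 20 highest other genes left out, the share rose to 4.02%, 3.20%, 3.45% and 3.32% in O. nasuta BS, CE, DI and OT, and to 4.02% and 3.23% in O. ventralis BS and CE. The causes were not tested.

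Leaving out 1 fish at a time gave 3 to 8 calls in O. nasuta BS, 4 to 14 in CE, 0 to 2 in DI, 2 to 22 in OB, 11 to 22 in OT and 6 to 26 in TE. In O. ventralis it gave 3 to 14, 6 to 12, 0 to 6, 11 to 22, 9 to 15 and 18 to 28 in the same order of parts. It gave 0 to 1 species-dependent members, and between species 0 to 1 in DI (rpl7) and OB (rpl8 or rpl39), 0 to 2 in TE and 0 in BS, CE and OT. Relative to the family it gave 0, 2 to 8, 1 to 2, 0 to 8, 14 to 20 and 3 to 13 in O. nasuta, and 0 to 2, 3 to 10, 0 to 1, 5 to 12, 7 to 14 and 9 to 16 in O. ventralis. Depth limits rpl7l1 (from 4 reads per library) and the shallowest OB library (137128 counts).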
